A study of Prunus yedoensis with 90 samples.

Results

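Buds of the Yoshino cherry 'Somei-yoshino' (Cerasus × yedoensis) collected in January 2019 were compared with buds collected in December 2018 from the same 6 trees. The comparison rests on 12 of the 90 RNA sequencing libraries of the series, all those labelled as buds of these calendar months. January buds were taken in Fukuoka on day 17, in Tsukuba on day 10 and in Hokkaido (Sapporo) on day 8. December buds were taken in Fukuoka on day 19, in Tsukuba on day 7 and in Hokkaido on day 3, so that 29, 34 and 36 days lay between the collections. Each site, listed here from south to north, gave 2 trees in each month. The trees stood outdoors and received no treatment that the labels record. Since this cultivar is multiplied by grafts, the trees are separate plants of 1 clone. The series as a whole followed apical buds of these trees over 11 dates per site (66 libraries) and leaves over the first 4 of them (24 libraries). The labels do not say whether the buds were flower buds or vegetative buds.

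Buds of temperate trees form in the growing season and pass the winter in dormancy. In endodormancy the bud itself holds back growth, and a long exposure to cold releases it. The bud then rests in ecodormancy, held only by low temperature, until warm days allow it to swell and open. In Prunus, a tandem cluster of DORMANCY-ASSOCIATED MADS-box genes is known for transcript levels that follow this cycle, and cold-response genes of the CBF family are known to be induced as the temperature drops. Midwinter collections therefore bear on how transcript levels move while buds are dormant. Neither these genes nor any other could be identified here, because the deposited table holds gene IDs without names. Of 83 symbols looked for, from dormancy, cold, hormone, cell cycle, flower, clock and photosynthesis genes, 0 matched an ID. Genes are therefore given by ID only, with no role, and the tissue label could not be checked against markers.

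The values are TPM, a measure scaled for gene length and library total. They keep no depth, so no counting interval could be given and the precision rests on the trees. Of 95076 IDs, 40161 had a mean of at least 1 TPM over the 66 bud libraries and were tested, and 28911 were listed at 0 in all 90 libraries. Changes are differences of log2(TPM + 1), January minus December, within trees and averaged over the 3 sites with equal weight. The added 1 understates the change of low genes. Calls needed a limma Benjamini-Hochberg adjusted p under 0.05 together with a change of 1 or more, which is 2-fold. Across genes, the trees of a site correlated with r between 0.982 and 0.984 in January and between 0.976 and 0.982 in December (3 pairs each, 40161 genes, a description).

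More genes fell than rose between December and January. In January buds 1617 genes were lower and 479 were higher than in December buds, which is 2096 of 40161 genes tested, or 5.22% of them (1.19% rising and 4.03% falling). The falling genes made up 77.1% of the calls, while over all genes tested the median change was -0.02, with quartiles at -0.28 and 0.20. The falling genes had a median change of -1.38 and the rising genes one of 1.27, and the median standard error over all genes was 0.12. Large falls were more numerous than large rises: 298 genes fell by 2 or more on the log2 scale and 58 by 3 or more, against 46 and 5 that rose by as much. Without the minimum change, the adjusted p alone called 8903 falling and 7297 rising genes, so the excess of falling genes was much smaller among small changes. In bulk buds, fewer cells of a type and less RNA per cell cannot be told apart.

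**Figure D1:**
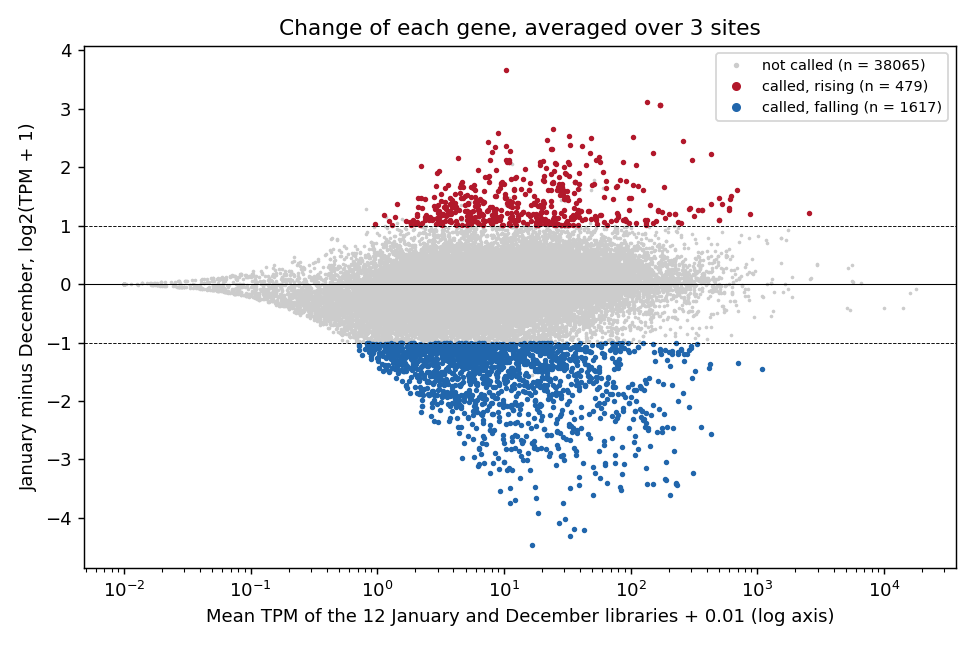
Each point is a gene, with its change in log2(TPM + 1) from December to January on the vertical axis and its mean TPM over the 12 libraries, plus 0.01, on a log horizontal axis. Red points are the 479 genes called rising, blue points the 1617 called falling and grey points the genes not called, and 58 blue points lie at -3 or below, against 5 red points at 3 or above.

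The same trees decide which genes are called, so the following counts describe the called genes and do not support them. Of the 1617 falling genes, 1356 were lower in January in all 6 trees, as were 12.9% of all genes tested. Of the 479 rising genes, 373 were higher in January in all 6 trees, as were 11.5% of all genes tested. In 815 falling genes all 6 January values lay below all 6 December values, which held for 3.73% of the genes tested. In 96 rising genes all 6 January values lay above all 6 December values, against 1.61% of the genes tested. The months thus overlapped in a larger share of the rising than of the falling genes. Some genes passed below 1 TPM, a chosen level and not a limit of detection: 107 falling genes averaged under 1 TPM in January and at least 5 TPM in December, and in 57 of the falling genes all 6 January values lay under 1 TPM and all 6 December values over it. The opposite pattern was rarer, with 12 rising genes at a mean of at least 5 TPM in January and under 1 TPM in December, and 0 rising genes in which the 6 values of each month lay on either side of 1 TPM. These counts around 1 TPM were taken among the called genes only. Their share over all genes tested was not computed, so they are a description without a background.

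Falling genes were spread over all levels of abundance. They were 4.06% of the 14968 genes tested under 5 TPM, 3.75% of the 15218 genes from 5 to 20 TPM, 4.04% of the 8484 genes from 20 to 100 TPM and 6.44% of the 1491 genes at 100 TPM or more. The share of rising genes was 0.661%, 1.22%, 1.71% and 3.35% over the same levels, lowest among low genes. A mean of 100 TPM or more was reached by 67 rising genes in January and by 156 falling genes in December. Each set was counted in the month where its choice makes it high. The share over all genes tested was not computed for single months, so these counts have no background. Summed over each library, the falling genes held between 1.40% and 2.40% of all TPM in January, against 3.81% to 9.37% in December. The rising genes held between 2.38% and 4.89% in January, against 0.838% to 2.79% in December. In each of the 6 trees the rising genes held more TPM than the falling genes in January, and the falling genes held more in December. The same libraries chose both sets, so the direction of these sums follows largely from the choice and does not support the calls. The falling genes' share was highest in the Tsukuba trees in both months, at 2.40% and 2.24% in January, against 9.37% and 8.68% in December.

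Values over whole libraries were compared in the same tree pairs. Genes above 1 TPM numbered 36402 ± 585 in January and 37438 ± 1048 in December (SD, n = 6 trees each), and all 6 trees had fewer in January, with a mean difference of -1036 ± 650. An exact two-sided sign-flip permutation test over the 6 tree pairs gave p = 0.03125, the smallest it can give, and 0.09375 after Benjamini-Hochberg adjustment over 3 library measures, which misses the threshold. The difference was smallest in Hokkaido replicate 2, with 35471 genes in January and 35592 in December, and largest in Tsukuba replicate 1, with 36571 in January and 38394 in December. Genes above 100 TPM numbered 1507 ± 39.2 in January and 1490.5 ± 56.3 in December (exact permutation p = 0.625, adjusted p = 0.9375). The share of the library taken by its 100 most abundant genes was 19.2 ± 1.91% in January and 19.1 ± 2.26% in December (exact permutation p = 0.96875). That average joins opposite directions: the difference was 3.61 and 4.17 percentage points in the Tsukuba trees, and it was below 0 in the other 4 trees, from -2.59 to -0.42.

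**Figure D2:**
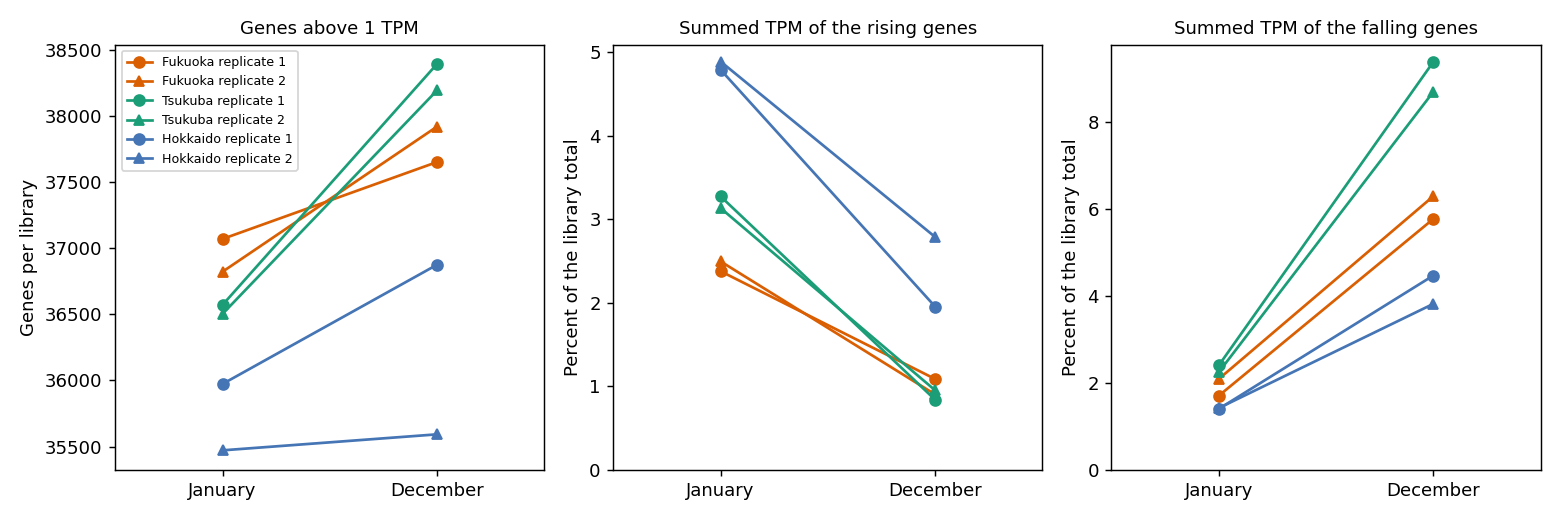
Lines join the January and December library of each of the 6 trees, for the number of genes above 1 TPM (left, an axis that does not start at 0) and for the percent of the library's TPM held by the 479 rising (middle) and 1617 falling genes (right). In all 6 trees the January library had fewer genes above 1 TPM, and the falling genes held between 1.40% and 2.40% in January, below every December value. The same libraries chose the rising and falling genes.

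The largest falls among genes that were lower in January in all 6 trees were those of CYE_r3.1SPE8_g020900.1 and CYE_r3.1SPA8_g017470.1. CYE_r3.1SPE8_g020900.1 had 2.90, 6.94, 1.41, 1.48, 0.817 and 0.253 TPM in January, in the order Fukuoka replicates 1 and 2, Tsukuba replicates 1 and 2 and Hokkaido replicates 1 and 2, against 93.6, 94.4, 95.5, 60.6, 26.9 and 15.5 TPM in December. The months did not overlap, and the gene fell by 4.30 on the log2 scale (SE 0.37, limma adjusted p = 6.87e-11). CYE_r3.1SPA8_g017470.1, whose levels followed it over the 66 bud libraries with r = 0.983, had between 0.687 and 9.76 TPM in January (median 2.42), against 20.6 to 122.5 TPM in December (median 90.9). It fell by 4.21 (SE 0.33, limma adjusted p = 9.95e-12), again with no overlap and with the lowest values of each month in Hokkaido. The test of a difference between the sites was not passed by either gene (adjusted p = 0.581 for CYE_r3.1SPE8_g020900.1 and 0.680 for CYE_r3.1SPA8_g017470.1).

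The largest rise was that of CYE_r3.1SPA0_g127650.1. It had 10.0, 11.7, 11.6, 13.4, 34.5 and 36.6 TPM in January, in the same tree order, and in December it was listed at 0 in 5 trees and at 7.14 TPM in Hokkaido replicate 1. The fitted change was 3.66 (SE 0.40, limma adjusted p = 8.66e-09), a size that depends on the pseudocount because a value of 0 can also be a failed estimate. It was also listed at 0 in all 24 leaf libraries and at every bud date from June to October and in March and April. CYE_r3.1SPA3_g000070.1 had 37.6, 20.1, 191.5, 140.9, 556.1 and 515.4 TPM in January, against 8.19, 4.80, 6.68, 8.09, 62.6 and 65.8 TPM in December. It rose in every tree by 3.10 on average (SE 0.44, limma adjusted p = 1.03e-06), although the Fukuoka trees in January stayed under the Hokkaido trees in December. Its levels matched those of 3 other IDs, CYE_r3.1SPA3_g000060.1, CYE_r3.1SPE3_g001230.1 and CYE_r3.1SPE3_g001240.1, with r = 0.9995 each, so these IDs may share reads and none of the levels is certain on its own.

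Among abundant genes, CYE_r3.1SPE0_g037450.1 gained most in mean TPM, with 2017, 2215, 3207, 3647, 5037 and 4899 TPM in January, against 1603, 1297, 731, 925, 1901 and 3173 TPM in December (change 1.21, SE 0.28, limma adjusted p = 0.000752). It was nearly absent from leaves, at a mean of 1.48 TPM over 24 libraries. CYE_r3.1SPA8_g021540.1 averaged 1248 ± 875 TPM in January and 491 ± 196 TPM in December (SD, n = 6 each; change 1.19, SE 0.16, limma adjusted p = 2.82e-07). The Hokkaido trees, at 2007 and 2680 TPM in January, against 406 and 731 TPM in December, carried most of that gain, and the site changes differed (limma F test adjusted p = 0.00182). After quantile normalization these rises came to 0.93 and 0.92 on the log2 scale and no longer reached the minimum change, so neither was called there. The largest loss in mean TPM was that of CYE_r3.1SPA1_g039870.1, with 886, 1208, 918, 873, 155 and 156 TPM in January, against 2119, 1932, 1246, 1244, 1186 and 1148 TPM in December (change -1.45, SE 0.17, limma adjusted p = 5.51e-08). Its site changes also differed (limma F test adjusted p = 0.000248), the Hokkaido trees being far below the others in January. CYE_r3.1SPA1_g038830.1 fell evenly at the 3 sites, to 124 ± 38.5 TPM in January, against 733 ± 198 TPM in December (change -2.56, SE 0.23, limma adjusted p = 1.47e-10).

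**Figure D3:**
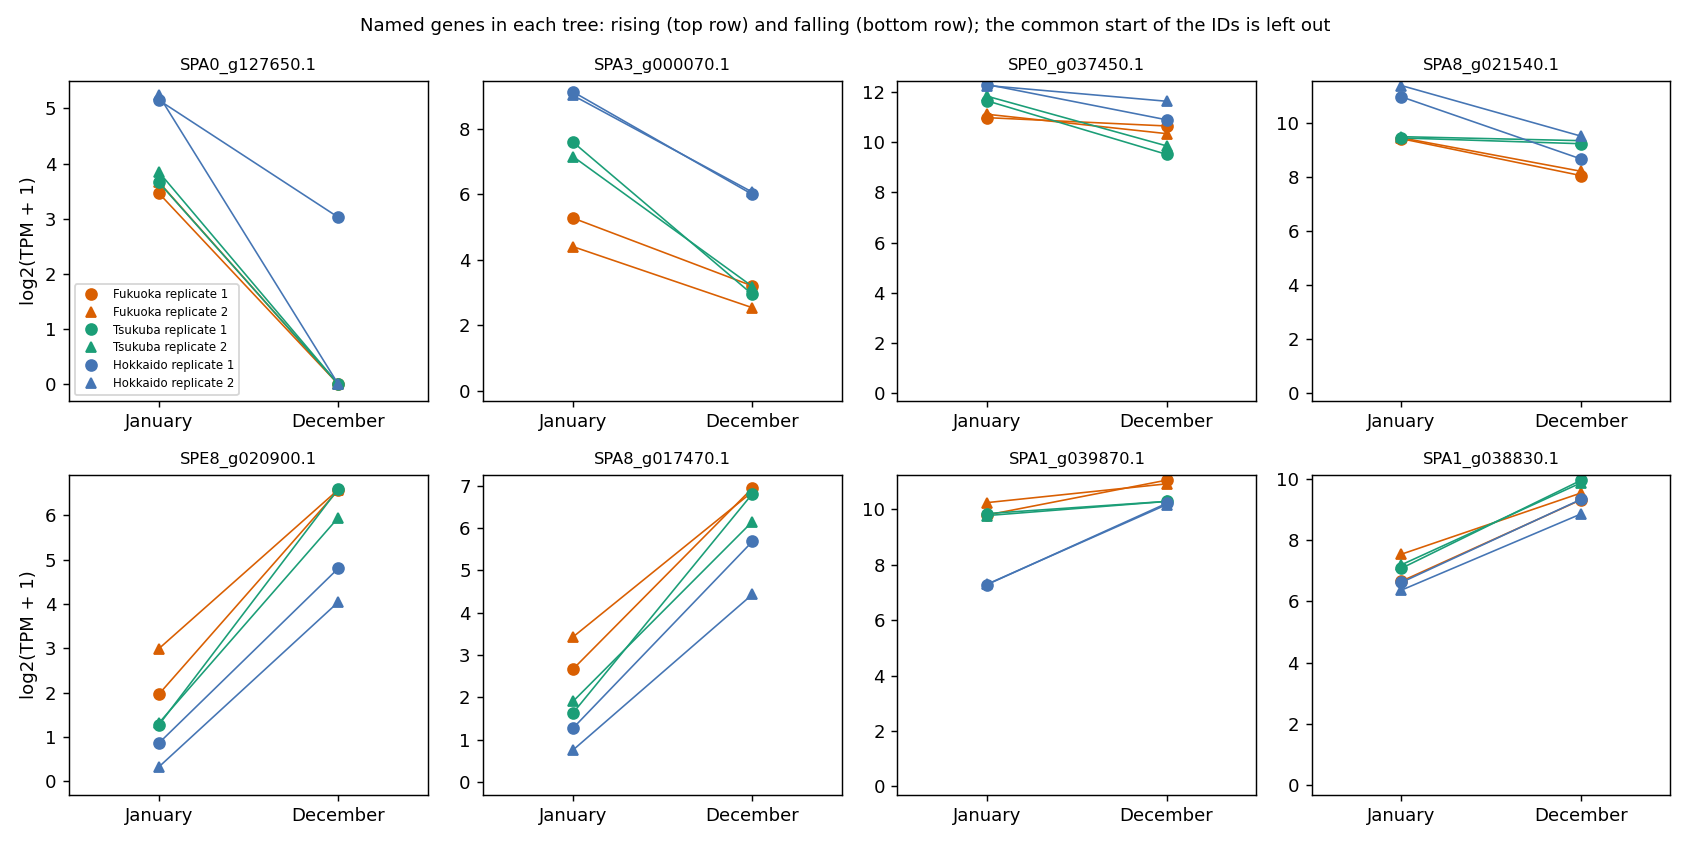
Each panel gives log2(TPM + 1) of a gene in the January and December library of each tree, joined by a line, with the rising genes in the top row and the falling genes in the bottom row. Every line of CYE_r3.1SPE8_g020900.1 and CYE_r3.1SPA8_g017470.1 is steep, while CYE_r3.1SPA8_g021540.1 moved little in the Tsukuba trees and most in the Hokkaido trees.

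The months outside the comparison show when the falling genes came back. In Hokkaido the median level of the 1617 falling genes, in log2(TPM + 1), was 4.59 in October, 3.25 in November, 2.90 in December, 1.61 in January, 2.09 in February, 3.29 in March and 3.92 in April. In Tsukuba it held at 4.36, 4.24 and 4.12 from October to December and was 2.06 in January, 2.75 in February, 3.92 in March and 3.82 in April. In Fukuoka it was 4.26 in October, 3.81 in November, 3.55 in December, 2.05 in January, 2.51 in February and 4.09 in March. The Hokkaido trees were thus well below their October level by 8 November, a month in which the Tsukuba trees had scarcely moved. Nearby library numbers are called a run here, since the labels give no sequencing batch. The numbers of Hokkaido replicate 1 and Fukuoka replicate 2 pass into another run between October and November, and those of Hokkaido replicate 2 do not. The falling genes changed by a median of -1.12 in Hokkaido replicate 1 and -1.25 in Hokkaido replicate 2 over that step. Any part of the run in these values was not tested. Between December and January the level over all genes tested moved far less at each site. Its median went from 3.18 to 3.16 in Fukuoka, 3.17 to 3.07 in Tsukuba and 3.12 to 3.03 in Hokkaido. This did not hold for every step. In Tsukuba it moved more than the falling genes from October to November (2.92 to 3.19) and from March to April (3.40 to 3.15).

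The rising genes ran the other way. Their median level in Hokkaido was 1.70 in October, 3.08 in November, 3.51 in December, 4.69 in January, 4.20 in February and 2.87 in March. In Tsukuba it was 1.97 in October, 2.19 in November, 2.47 in December, 4.16 in January, 3.95 in February and 2.98 in March. In Fukuoka it was 1.67 in October, 2.24 in November, 2.39 in December, 3.63 in January, 3.48 in February and 2.31 in March. By 3 December the Hokkaido trees already stood near the level that the Fukuoka trees had in January. January was the month of the highest mean for 306 of the 479 rising genes (63.9%, against 12.2% of all genes tested) and of the lowest mean for 1209 of the 1617 falling genes (74.8%, against 25.5%), counts in which the choice of the genes takes part. Over single dates, 8 January in Hokkaido held the highest mean of 226 rising genes (47.2%, against 7.31% of all genes tested) and the lowest of 638 falling genes (39.5%, against 12.4%).

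**Figure D4:**
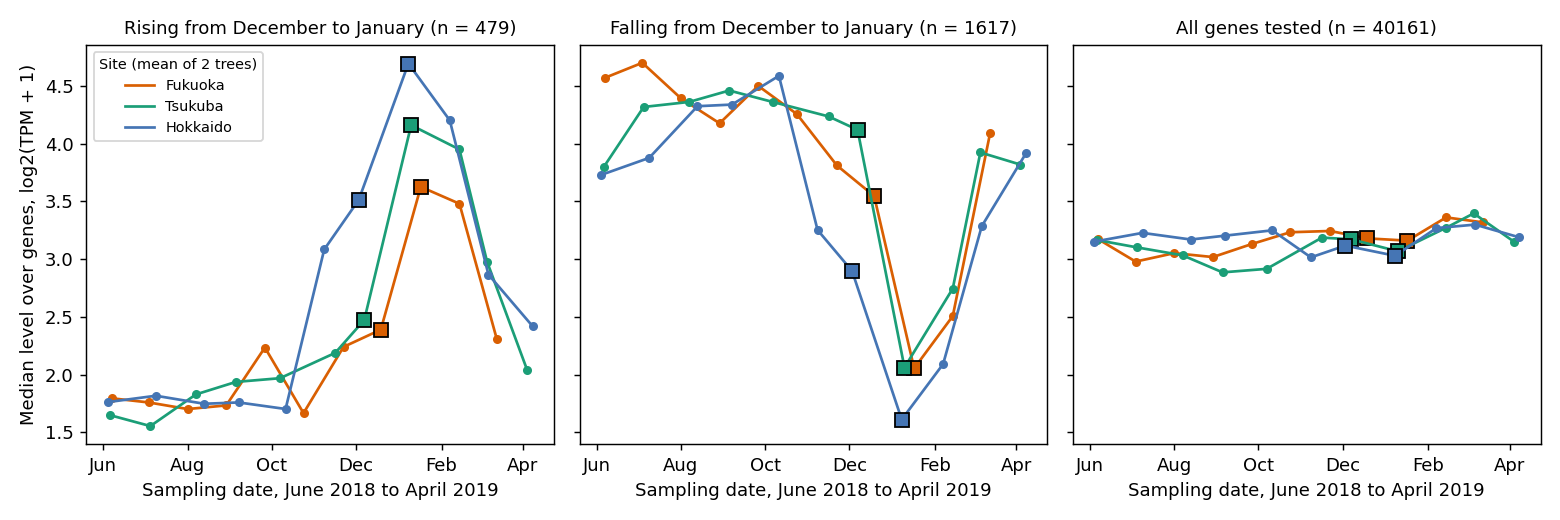
Points are the median level over genes in log2(TPM + 1) of the mean of 2 trees per site and date from June 2018 to April 2019, for the rising genes, the falling genes and all genes tested, with squares at the December and January collections that chose the genes. The falling genes are at their lowest in January at all 3 sites and are higher again in March, and the rising genes are at their highest in January.

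Steps between months that share no library with December or January entered the choice of the genes only through the filter and the pooled spread. A gene with a small pooled spread is called more easily in every step. The part of this in the overlaps was not tested. From February to March 4688 genes changed, or 11.7% (8.65% rising and 3.03% falling). Of the 1617 genes that fell from December to January, 875 rose from February to March, which is 54.1% of them and 25.2% of the genes that rose in that step, while 11 fell again. Of the 479 rising genes, 227 fell from February to March (47.4% of them and 18.7% of the genes that fell in that step) and 4 rose again. The median change from February to March was 1.08 for the falling genes, -0.96 for the rising genes and 0.00 for all genes tested. From October to November 2189 genes changed, or 5.45% (2.22% rising and 3.23% falling). Averaged over the sites, the direction here was the same as in midwinter. Of the falling genes 393 also fell from October to November (24.3% of them and 30.3% of the genes that fell then) and 34 rose, and of the rising genes 129 rose (26.9% and 14.4%) and 12 fell. The median change from October to November was -0.58 for the falling genes, 0.57 for the rising genes and 0.03 for all genes tested. The sites were unequal in this step. The rising genes changed by a median of 1.05 and 1.43 in Hokkaido replicate 1 and 2 and 0.43 and 0.35 in Fukuoka. In Tsukuba replicate 1 and 2 they changed by 0.20 and 0, where all genes tested changed by 0.21 and 0.29. The falling genes changed by -0.24 and 0.08 in those Tsukuba trees. In the 4 trees whose October and November libraries lie in 1 run of library numbers, 381 of 1616 falling genes fell (23.6%, against 3.91% of the genes tested) and 164 of 475 rising genes rose (34.5%, against 2.66%).

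Within sites, Tsukuba changed most, with 4552 genes called or 11.3% (1082 rising, 2.69%, and 3470 falling, 8.64%). Hokkaido followed with 2814 genes or 7.01% (935 rising, 2.33%, and 1879 falling, 4.68%) and Fukuoka with 2211 or 5.51% (597 rising, 1.49%, and 1614 falling, 4.02%). Each count rests on 2 trees and on the spread pooled over all bud libraries. Without Hokkaido replicate 1 the Hokkaido count was 1780, and without Fukuoka replicate 2 the Fukuoka count was 980, with the single tree left assumed to vary like the others. By adjusted p alone, Fukuoka held 3995 rising and 3733 falling genes, so its excess of falling genes did not extend to small changes. Site, calendar day and interval between collections changed together and cannot be told apart.

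The sites share no library, and many of their calls coincided. Of the 1614 genes that fell in Fukuoka, 1160 also fell in Tsukuba, which is 71.9% of the Fukuoka list and 33.4% of the Tsukuba list, where 8.64% of all genes tested fell in Tsukuba. Hokkaido shared 743 falling genes with Tsukuba (39.5% of the Hokkaido list and 21.4% of the Tsukuba list) and 635 with Fukuoka (33.8% of the Hokkaido list and 39.3% of the Fukuoka list). In Fukuoka 4.02% of all genes tested fell. The lists of rising genes were shorter, and 248 genes rose in Tsukuba and in Fukuoka, which is 22.9% of the Tsukuba list and 41.5% of the Fukuoka list, where 2.69% of all genes tested rose in Tsukuba and 1.49% in Fukuoka. Hokkaido shared 174 rising genes with Fukuoka (18.6% of the Hokkaido list and 29.1% of the Fukuoka list) and 130 with Tsukuba (13.9% of the Hokkaido list and 12.0% of the Tsukuba list). In all, 6924 of the 40161 genes tested were called at 1 site or more, of which 498 fell and 84 rose at all 3 sites. Opposite calls were few between Tsukuba and Fukuoka. Of the genes that fell in Fukuoka, 4 rose in Tsukuba (0.248%, against 2.69% of all genes tested). Of those that rose in Fukuoka, 7 fell in Tsukuba (1.17%, against 8.64%). In Hokkaido, 11 of the genes that fell in Fukuoka rose (0.682%, against 2.33%), and 14 of those that rose in Fukuoka fell (2.35%, against 4.68%). Between Hokkaido and Tsukuba opposite calls came near the share over all genes: 67 of the genes that rose in Hokkaido fell in Tsukuba (7.17%, against 8.64% of all genes tested), and 59 of those that fell in Hokkaido rose in Tsukuba (3.14%, against 2.69%). Across the 40161 genes, the changes correlated with r = 0.616 between Tsukuba and Fukuoka, 0.506 between Hokkaido and Fukuoka and 0.280 between Hokkaido and Tsukuba, as a description, since genes are not independent replicates.

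**Figure D5:**
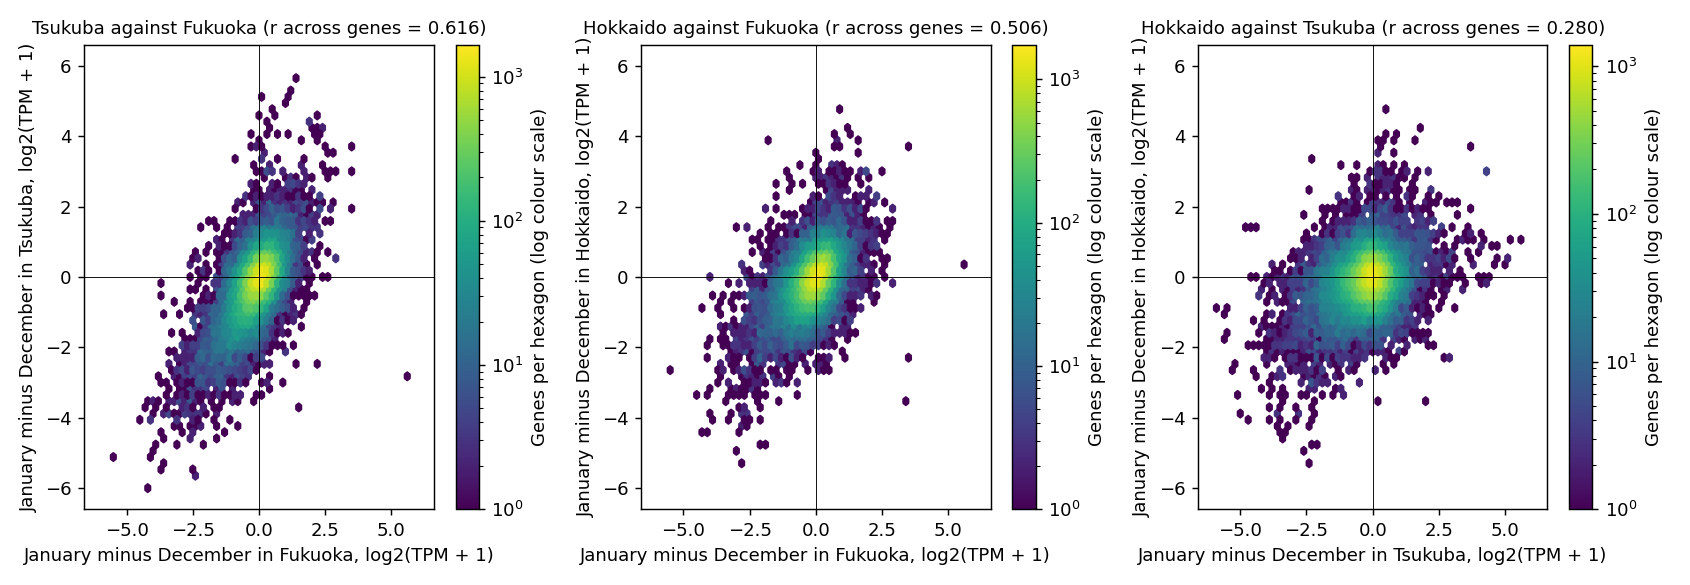
Hexagons count genes on a log colour scale by their January minus December change in log2(TPM + 1) at pairs of sites: Tsukuba on the vertical and Fukuoka on the horizontal axis (left), Hokkaido against Fukuoka (middle) and Hokkaido against Tsukuba (right). The cloud is long and tilted for Tsukuba against Fukuoka (r = 0.616) and nearly round for Hokkaido against Tsukuba (r = 0.280).

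The change from December to January differed between the sites in 5317 genes (limma F test, adjusted p under 0.05 and a range between site changes of at least 1; 13.2% of the genes tested). They include 663 of the 2096 genes called in the average (31.6%), 164 rising and 499 falling, for which the averaged change is not the change of every site. By pairs, Hokkaido and Tsukuba differed in 5151 genes (12.8%), Tsukuba and Fukuoka in 1354 (3.37%) and Hokkaido and Fukuoka in 1124 (2.8%). The last pair of counts depends on single trees: Tsukuba minus Fukuoka called 233 and 616 genes without Fukuoka replicate 1 and 2, and 442 and 717 when Tsukuba replicate 1 or 2 was left out. For Hokkaido minus Fukuoka, 657 and 121 genes were called without Fukuoka replicate 1 and 2, and 605 without Hokkaido replicate 1.

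Hokkaido and Tsukuba, the pair with the most differing genes, are described further. The change was more positive in Hokkaido for 3161 genes (7.87%), with a median of 0.42 in Hokkaido and -1.06 in Tsukuba. Of these genes 518 passed the test as rising in Hokkaido and 1675 as falling in Tsukuba. It was more negative in Hokkaido for 1990 genes (4.96%), with a median of -0.72 in Hokkaido and 0.68 in Tsukuba, and 597 passed as falling in Hokkaido and 548 as rising in Tsukuba. The signs of the fitted changes were opposite in 73.9% of the 3161 and 83.8% of the 1990 genes, against 44.7% of all genes tested, a share that the choice of genes with a large difference raises by itself. Their December and January levels at these sites chose the genes, whereas the levels in October and November entered only through the filter and the pooled spread. In Hokkaido the 3161 genes had a median level in log2(TPM + 1) of 3.55 in October, 2.56 in November, 2.11 in December and 2.55 in January. In Tsukuba their median was 3.04 in October, 3.38 in November, 3.37 in December and 2.14 in January. From October to November the median change of the 3161 genes was -0.83 and -0.85 in Hokkaido replicate 1 and 2 and 0.22 and 0.56 in Tsukuba replicate 1 and 2. All genes tested changed by -0.13 and -0.20 in the same Hokkaido trees and by 0.21 and 0.29 in the same Tsukuba trees. The value of Tsukuba replicate 1 was thus near that of all genes. In Fukuoka, whose levels also entered only through the filter and the pooled spread, the median of the 3161 genes was 2.31 in January, against 2.65 in December. The 1990 genes had a median of 3.28 in October, 3.54 in November, 4.03 in December and 3.21 in January in Hokkaido. In Tsukuba it was 3.23, 3.31, 3.16 and 3.89 at the same times. From October to November they changed by a median of 0.23 and 0.04 in Hokkaido replicate 1 and 2. In Tsukuba replicate 1 and 2 they changed by 0.08 and -0.003. Their median in Fukuoka was 3.73 in January, against 3.71 in December.

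The other pairwise differences shifted with the scaling. Tsukuba minus Fukuoka was more positive in 437 genes (1.09%) and more negative in 917 (2.28%) as deposited, while median scaling gave 571 and 708 and quantile normalization 570 and 647, so the excess of more negative genes shrank and kept its direction. Hokkaido minus Fukuoka was more positive in 521 genes (1.3%) and more negative in 603 (1.5%) as deposited, but median scaling gave 694 and 493 and quantile normalization 487 and 455, so the majority turned round.

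CYE_r3.1SPE3_g028960.1 had the highest positive difference of Hokkaido minus Tsukuba and of Hokkaido minus Fukuoka among the genes that the naming rule admits. It had 36.1 and 39.6 TPM in Hokkaido, 9.38 and 6.67 in Tsukuba and 6.28 and 3.77 in Fukuoka in January, against 15.2 and 11.5, 266 and 207, and 45.0 and 53.5 TPM at the same sites in December. Its change was 1.45 in Hokkaido, -4.72 in Tsukuba and -3.09 in Fukuoka, a difference of 6.17 for Hokkaido minus Tsukuba (SE 0.68, limma adjusted p = 2.08e-07) and 4.54 for Hokkaido minus Fukuoka (limma adjusted p = 0.000139). Its Hokkaido level had been 183 TPM in October and 42.8 TPM in November, and by March it reached 90.2 TPM in Hokkaido, 216 in Tsukuba and 208 in Fukuoka. CYE_r3.1SPA0_g175850.1 followed the same course with r = 0.986 over 66 libraries and differed by 5.96 between Hokkaido and Tsukuba (SE 0.73, limma adjusted p = 1.06e-06). Another ID, CYE_r3.1SPA0_g175790.1, had the same January mean of 7.28 TPM as that gene, so these 2 levels may rest on shared reads.

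CYE_r3.1SPE7_g017590.1 and CYE_r3.1SPA1_g006980.1 differed the other way between Hokkaido and Tsukuba. The first had 35.6 and 43.1 TPM in Hokkaido and 153 and 110 TPM in Tsukuba in January, against 224 and 179 TPM in Hokkaido and 21.2 and 11.4 TPM in Tsukuba in December (difference -5.29, SE 0.53, limma adjusted p = 3.89e-08). The second had 58.6 and 40.0 TPM in Hokkaido, 70.8 and 68.6 in Tsukuba and 2.74 and 3.28 in Fukuoka in January, against 20.1 and 27.0, 0.50 and 0.37, and 0.609 and 0.580 TPM in December. It was high in Hokkaido in both months and switched to a high level between the collections in Tsukuba, where its rise of 5.62 (SE 0.79, limma adjusted p = 2.10e-06) was the largest of the site, and its January level in Fukuoka stayed low. The difference was -4.60 for Hokkaido minus Tsukuba (limma adjusted p = 0.00304) and 4.30 for Tsukuba minus Fukuoka (limma adjusted p = 0.0188). The Tsukuba minus Fukuoka call was lost without either tree of either site, with adjusted p between 0.0552 and 0.108, and with a pseudocount of 0.1 (limma adjusted p = 0.0757), and the Hokkaido minus Tsukuba call without Hokkaido replicate 2 (0.0758).

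Among the genes with the largest changes or differences, 3 were listed at 0 in some libraries and at about 10 TPM or more in the others, with nothing between. CYE_r3.1SPA6_g026650.1 was listed at 0 in all 6 January libraries, against 44.2 and 44.3 TPM in Fukuoka, 35.2 and 37.6 TPM in Tsukuba and 37.8 and 0 TPM in Hokkaido in December (change in Fukuoka -5.50, limma adjusted p = 0.0164); its averaged change of -4.45 was the largest fall of all, but it was not shared by Hokkaido replicate 2. CYE_r3.1SPE0_g129510.1 was at 54.1 and 45.2 TPM in Fukuoka and 0 and 0 in Tsukuba in January, against 0 and 0 in Fukuoka and 0 and 44.4 TPM in Tsukuba in December (difference -8.41, SE 2.43, limma adjusted p = 0.0335). CYE_r3.1SPA0_g085220.1 was at 0 and 0 in Hokkaido and 9.24 and 10.2 TPM in Fukuoka in January, against 11.6 and 10.1 TPM in Hokkaido and 0 and 0 in Fukuoka in December (difference -6.99, SE 1.94, limma adjusted p = 0.0305). In December, CYE_r3.1SPE0_g129510.1 thus stood at 0 and at 44.4 TPM in Tsukuba trees sampled on the same day. Each of these site calls was lost when either Fukuoka tree was left out, so they are uncertain. Such values touched a part of the calls: 80 of the 479 rising and 331 of the 1617 falling genes, 19.6% of the called genes together, were listed at 0 in at least 1 of the 12 libraries, as were 9.10% of the genes tested.

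The other genes named within sites had clear levels. In Fukuoka, CYE_r3.1SPE0_g139740.1 had 0.275 and 0.672 TPM in January, against 27.9 and 37.4 TPM in December (change -4.51, SE 0.71, limma adjusted p = 3.12e-05), and it fell by similar amounts in Tsukuba (-3.95) and Hokkaido (-3.29). In Tsukuba, CYE_r3.1SPA8_g014790.1 was at 0 and 0.843 TPM in January, against 93.0 and 73.1 TPM in December (change -5.94, SE 0.57, limma adjusted p = 2.73e-09). That gene had reached low levels earlier in Hokkaido, where it stood at 140 TPM in October, 41.6 TPM in November, 2.00 TPM in December and 0.681 TPM in January. CYE_r3.1SPE0_g124790.1 had 0 and 0.189 TPM in January in Tsukuba, against 58.3 and 48.1 TPM in December, while in Hokkaido it was listed at 0 in January and was already at 0.512 and 2.10 TPM in December. The 2 largest falls in Hokkaido were those of CYE_r3.1SPA7_g021240.1, with 1.88 and 0.564 TPM in January, against 86.0 and 73.1 TPM in December (change -5.24, SE 0.60, limma adjusted p = 1.44e-07), and of CYE_r3.1SPE7_g014400.1, with 1.81 and 1.87 TPM in January, against 86.8 and 83.6 TPM in December.

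Rises within a site were less even between its trees. CYE_r3.1SPE4_g025330.1 had 287 and 32.2 TPM in January in Tsukuba replicate 1 and 2, against 1.71 and 1.55 TPM in December (change 5.21, SE 0.94, limma adjusted p = 6.39e-05). Without Tsukuba replicate 1 the change was 3.70 and the call was lost (limma adjusted p = 0.0734). CYE_r3.1SPA3_g018920.1 showed the same inequality, with 195 and 20.7 TPM in January in Tsukuba and 8.40 and 7.04 TPM in Fukuoka, against 3.83 and 2.37 TPM in Tsukuba and 12.9 and 7.81 TPM in Fukuoka in December. Its difference of 4.36 between Tsukuba and Fukuoka had an adjusted p of 0.0462, which was 0.0582 without the tree block and between 0.0543 and 0.410 with any 1 of the 6 trees left out. In Hokkaido, CYE_r3.1SPE1_g040210.1 had 121 and 70.0 TPM in January, against 10.5 and 0 TPM in December (limma adjusted p = 0.0132), and CYE_r3.1SPE0_g145690.1 had 22.5 and 26.0 TPM in January, against 0.679 and 0 TPM in December (limma adjusted p = 0.00652). The first call was lost without Hokkaido replicate 2 (limma adjusted p = 0.0626), and the second without either Hokkaido tree (0.063 and 0.115).

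Other genes opened or closed a gap between sites. CYE_r3.1SPA1_g035870.1 had 2.60 and 3.05 TPM in Tsukuba and 8.89 and 9.61 TPM in Fukuoka in January, against 34.1 and 36.1 TPM in Tsukuba and 10.7 and 4.47 TPM in Fukuoka in December (difference -3.60, SE 0.53, limma adjusted p = 0.000134). CYE_r3.1SPE2_g035260.1 had 62.9 and 62.8 TPM in Hokkaido and 14.6 and 13.4 TPM in Fukuoka in January, against 6.17 and 15.1 TPM in Hokkaido and 48.0 and 36.8 TPM in Fukuoka in December (difference 4.09, SE 0.59, limma adjusted p = 8.72e-05). CYE_r3.1SPE5_g017890.1 was at 43.0 and 69.5 TPM in Hokkaido and 83.0 and 65.5 TPM in Fukuoka in January, against 65.3 and 61.2 TPM in Hokkaido and 9.89 and 7.63 TPM in Fukuoka in December (difference -3.15, SE 0.56, limma adjusted p = 0.00109). In January the Hokkaido and Fukuoka levels of this last gene overlapped, whereas in December they lay far apart. Without Fukuoka replicate 2 its call was lost (limma adjusted p = 0.0701).

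Leaf libraries, collected from June to early September, did not take part in the choice of the genes. The filter, however, used the mean over buds alone, so genes high only in winter buds could pass it whatever their leaf level. The rising genes had a median of 2.59 TPM in leaf and the falling genes one of 4.45 TPM, against 5.57 TPM for all genes tested. In June buds the rising genes had a median log2(TPM + 1) of 1.79 in Fukuoka, 1.65 in Tsukuba and 1.76 in Hokkaido. The falling genes had 4.57, 3.80 and 3.73 there, and all genes tested 3.17, 3.17 and 3.15. Leaves were not tested against buds of the same dates. A leaf mean under 1 TPM was found for 176 of the rising genes (36.7%) and 416 of the falling genes (25.7%), against 16.7% of all genes tested. Per the labels, leaf and bud RNA were extracted by different methods, and their part in these levels was not tested.

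The gene IDs carry either SPA or SPE, letters that the sources used here do not explain. The rising share was 1.19% of the IDs tested with either, and the falling share was 3.81% of the SPA IDs and 4.26% of the SPE IDs. Of the falling genes, 242 (15.0%) had an adjacent ID number that was falling too, as had 4.63% of all genes tested, and of the rising genes 41 (8.56%) had an adjacent rising one, against 1.51%. Some called IDs may not be separate measurements. Of the 2096, 543 (25.9%) had a partner among all genes tested with r of at least 0.99 over the 66 bud libraries. Joining only those partners that were both called left 1808 groups, 1391 falling and 417 rising. Of the genes named within sites, CYE_r3.1SPA8_g014790.1, CYE_r3.1SPE0_g124790.1 and CYE_r3.1SPE1_g040210.1 had such partners. The sources used here do not give how reads that fit several near-identical genes were counted.

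By the library numbers that the labels give, the libraries fell into 4 runs of nearby numbers, and the 12 libraries of December and January lay in 2 of them. Each tree had its January and December libraries in the same run. In the 4 trees of the first of these runs (both of Fukuoka and replicate 1 of the other sites), 2369 genes were called, 518 rising and 1851 falling. Of the falling ones that could be looked up, 1556 of 1849 (84.2%) were lower in January in both other trees, as were 26.6% of all genes tested, and 1 was higher in both. Of the rising ones, 425 of 516 (82.4%) were higher in January in both other trees, as were 25.1% of all genes tested, and 1 was lower in both. Fitted alone, those 2 trees, Tsukuba replicate 2 and Hokkaido replicate 2, gave 0 genes called by limma, the only tool run. An unadjusted limma p under 0.05 was reached by 2484 of the 40021 genes tested, where a share of 0.05 would reach it with no change at all. Of the 2096 genes called in all trees, 2086 were tested there and 2085 had the same sign, although these trees also took part in calling them.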

How the data were processed

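Per the labels, RNA of cherry buds and leaves was sequenced as paired reads of 151 bases. The protocol text given for bud libraries also speaks of leaf RNA, so the tissue label was relied on. TPM values were deposited by the authors, 95076 gene IDs by 90 libraries, each summing to the same total, so depth is unknown. The submitters' processing notes list StringTie 1.3.5, STAR 1.5.2 and fastp 0.20.0 without roles. For the genome build and annotation nothing is given in the sources used here.

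Values were analysed as log2(TPM + 1), a pseudocount of 1, using the R package limma (version 3.58.1, under R 4.3.3) with lmFit, contrasts.fit and a plain eBayes, neither trended nor robust. All 66 bud libraries entered 1 fit with 33 means per site and date and a term for the tree, so the comparisons share 1 estimate of the spread (30 residual degrees of freedom). Genes with a mean of at least 1 TPM in buds were tested, and p-values were adjusted by Benjamini-Hochberg over all of them. Library measures were compared by exact two-sided sign-flip permutation tests over tree pairs. The deposited values were read with the data.table package, version 1.17.8, and figures were made in Python 3.11.15 with matplotlib 3.10.9. The fit was tested on simulated data with known changes.

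Replicate numbers pair libraries because the labels give each number 1 tree at every date. To check this, the tree-to-tree difference within each site was taken in January and in December, and over genes the 2 differences correlated with r = -0.0187 in Fukuoka, 0.105 in Tsukuba and 0.180 in Hokkaido. Values this low show little tree difference carried from December to January. The check therefore lends the pairing no support, and the pairing rests on the labels. Per site there are 2 trees, so p-values within a site lean on the pooled spread.

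Genes were named by size of change among the calls of each comparison: 2 at the rising and 2 at the falling end, with a mean of at least 5 TPM in the libraries compared and the same sign in every tree, or in every pairing of trees for a site difference. In the average, 2 more at either end were named by the change in mean TPM. The samples compared, the symbols searched and the tests were chosen with earlier results of these data known.

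Alternatives covered the pseudocount, the filter, median scaling and quantile normalization, the eBayes options, the tree block, the 12 libraries alone, the minimum change, the TPM thresholds of the library measures, each tree left out, and the runs of library numbers. Leaving out genes listed at 0, looking up calls in the second library run, and the October to November step in trees with 1 run of library numbers were chosen after seeing the data.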

Additional observations from a re-analysis of the deposited data

Results flagged for a closer look

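The change from December to January differed between the 3 sites, by a test of the difference itself, in 5317 genes, and between pairs of sites in 5151 genes for Hokkaido minus Tsukuba, 1354 for Tsukuba minus Fukuoka and 1124 for Hokkaido minus Fukuoka. Among the genes with the largest gain or loss in mean TPM, the highest and lowest site change of CYE_r3.1SPA8_g021540.1 lay 1.91 apart and those of CYE_r3.1SPA1_g039870.1 2.43 apart on the log2 scale. The largest pairwise differences, each tested as a difference with 2 trees per site, were the following. Hokkaido minus Tsukuba was 6.17 for CYE_r3.1SPE3_g028960.1, 5.96 for CYE_r3.1SPA0_g175850.1, -5.29 for CYE_r3.1SPE7_g017590.1 and -4.60 for CYE_r3.1SPA1_g006980.1. Hokkaido minus Fukuoka was 4.54 for CYE_r3.1SPE3_g028960.1, 4.09 for CYE_r3.1SPE2_g035260.1, -6.99 for CYE_r3.1SPA0_g085220.1 and -3.15 for CYE_r3.1SPE5_g017890.1. Tsukuba minus Fukuoka was 4.36 for CYE_r3.1SPA3_g018920.1, 4.30 for CYE_r3.1SPA1_g006980.1, -8.41 for CYE_r3.1SPE0_g129510.1 and -3.60 for CYE_r3.1SPA1_g035870.1. CYE_r3.1SPE0_g129510.1 and CYE_r3.1SPA0_g085220.1 jump between values listed at 0 and values of about 10 TPM or more. In the library measures no tree passed the limit set for the gap to its nearest neighbour, which is 0.625 of the range of 6 trees. Hokkaido replicate 2 lay farthest from the others in December, with 23.0% of its TPM in the 100 most abundant genes, against 16.4% to 19.6% in the other 5 trees (gap 0.528 of the range), and with 35592 genes above 1 TPM, against 36875 to 38394 (0.458).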

How the results depend on the processing

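The counts of called genes stayed within 1.5 times of those reported under median scaling, quantile normalization, other filters and eBayes options, with these exceptions. A pseudocount of 0.1 gave 4029 genes for the average, 4586 for Hokkaido, 1794 for Hokkaido minus Fukuoka and 3806 for November minus October. The 12 libraries alone gave 698 genes for Hokkaido minus Fukuoka. Adjusted p alone gave 16200 genes for the average, 7728 for Fukuoka, 12028 for Tsukuba, 10353 for Hokkaido, 8896 for the difference between the sites, 2389 for Tsukuba minus Fukuoka, 2008 for Hokkaido minus Fukuoka, 9603 for Hokkaido minus Tsukuba, 18210 for November minus October and 24247 for March minus February. The 2 trees of the second library run alone gave 0 genes by limma, with 2484 of 40021 genes tested at an unadjusted p under 0.05 and 10 residual degrees of freedom. Rising genes made up 26.7% of the calls after quantile normalization, against 22.9% as deposited. Leaving out genes listed at 0 gave 1685 genes for the average.

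With each tree left out in turn, the counts ran from 1942 to 2298 for the average, 980 to 2200 for Fukuoka, 3382 to 4518 for Tsukuba, 1780 to 2934 for Hokkaido, 3568 to 4673 for the difference between the sites, 233 to 1370 for Tsukuba minus Fukuoka, 121 to 1018 for Hokkaido minus Fukuoka and 3618 to 4960 for Hokkaido minus Tsukuba. The difference in genes above 1 TPM ran from -1219 to -879, with p = 0.0625, the smallest that 5 pairs allow in an exact permutation test. That in the share of the 100 most abundant genes ran from -0.706 to 0.648 percentage points. It was below 0 without Tsukuba replicate 1 (-0.593) or 2 (-0.706), and with the 20 most abundant genes instead (-0.523).

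Without the replicate block, 2087 genes were called for the average, 2145 for Fukuoka, 4496 for Tsukuba, 2735 for Hokkaido and 4915 for the difference between the sites, no count moving by 1.5 times. For genes above 1 TPM, an exact permutation test over 12 libraries without the pairing gave p = 0.0693 for the same difference of -1036. Of the named genes, the call of CYE_r3.1SPA3_g018920.1 was lost without the block. Over all alternatives, values of single named genes lost their call 46 times and changed sign in none.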

Other observations

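Some genes that rose from December to January also stood high in a single library of early autumn. In Fukuoka replicate 1 on 26 September, CYE_r3.1SPA3_g000070.1 was at 347.7 TPM, CYE_r3.1SPE4_g025330.1 at 2636 TPM, CYE_r3.1SPA3_g018920.1 at 2695 TPM and CYE_r3.1SPA1_g006980.1 at 102.6 TPM. In Fukuoka replicate 2 on the same day they were at 2.73, 31.4, 30.0 and 3.27 TPM. On 24 October the trees were at 2.43 and 2.50 TPM for the first gene and at 0.264 and 0.606 TPM for the last. Of the 479 rising genes, 17 had the highest of their 33 means per site and date in Fukuoka on 26 September (3.55%, against 0.874% of all genes tested). These genes were looked at after their values were seen, and no comparison of December with January uses that library other than through the pooled spread.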
